A study of Mus musculus with 8 samples.

Results

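The 10 genes described here encode innate immune sensors, their adaptor MyD88, acute phase proteins, an adhesion receptor and a pantetheinase: Cd14, Tlr2, Tlr3, Tlr4, Myd88, Saa3, Lcn2, Ptx3, Icam1 and Vnn3. They are the rows of the deposited count table whose gene name equals one of these symbols, and all 10 were found among 21899 genes. The poly(A) RNA came from mesenchymal stem cells grown from mouse femoral bone marrow, a stromal population able to form bone, fat and cartilage. The EA group received 10 µM ellagic acid (EA), a plant polyphenol, and the Control group received matching DMSO, the solvent. Both groups were collected after 48 h, with 4 libraries each. The labels give no strain, genotype, age, sex or passage, and nothing in them tells whether libraries of one group stem from different mice or culture dishes. The p-values therefore reflect only how these libraries varied, which may be technical.

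Toll-like receptors recognise microbial and damage-derived molecules at the cell surface or inside endosomes. Most of them signal through the adaptor MyD88 to kinases that release the transcription factor NF-kB, which acts with C/EBP and interferon-regulated factors on the promoters of inflammatory genes. Among the products are the acute phase proteins, named for their sharp rise in serum during infection. Marrow stromal cells are known to carry Toll-like receptors and to secrete acute phase and chemotactic proteins when these are engaged.

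With EA, 8 of the 10 genes were lower and 1 was higher at an adjusted p under 0.05 (quasi-likelihood test of edgeR, Benjamini-Hochberg adjustment over 11777 tested genes). In the same test 67.2% of all tested genes were called, 34.2% lower and 33.1% higher, so a call by itself was common in this comparison. All 10 genes passed the filter on low counts. The median log2 fold change was −1.20 over the 10 genes and −0.02 over all tested genes. At least 2-fold lower and past the threshold were 6 of the 10, namely Vnn3, Saa3, Cd14, Tlr4, Ptx3 and Tlr3, beside 8.68% of tested genes. For 7 of the 10 every EA library lay below every Control library, which held for 30.7% of tested genes. Lcn2 and Myd88 fell by less, Icam1 did not pass the test, and Tlr2 was the gene called higher.

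Total counts were 14112519 to 17390200 reads per library. TMM scaling, which assumes that rises and falls balance over most genes, gave composition factors of 1.13 to 1.14 in Control and of 0.878 to 0.885 in EA. With library totals in its place, the median log2 fold change over all tested genes shifted by −0.36. With totals 61.1% of tested genes were lower and 16.5% higher, and of the 10 genes 8 were lower and 0 higher. Levels are given as CPM, counts relative to the TMM-adjusted library total. Where genes are compared with each other, levels are the authors' FPKM, which also divide by gene length and use no TMM factor.

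**Figure D1:**
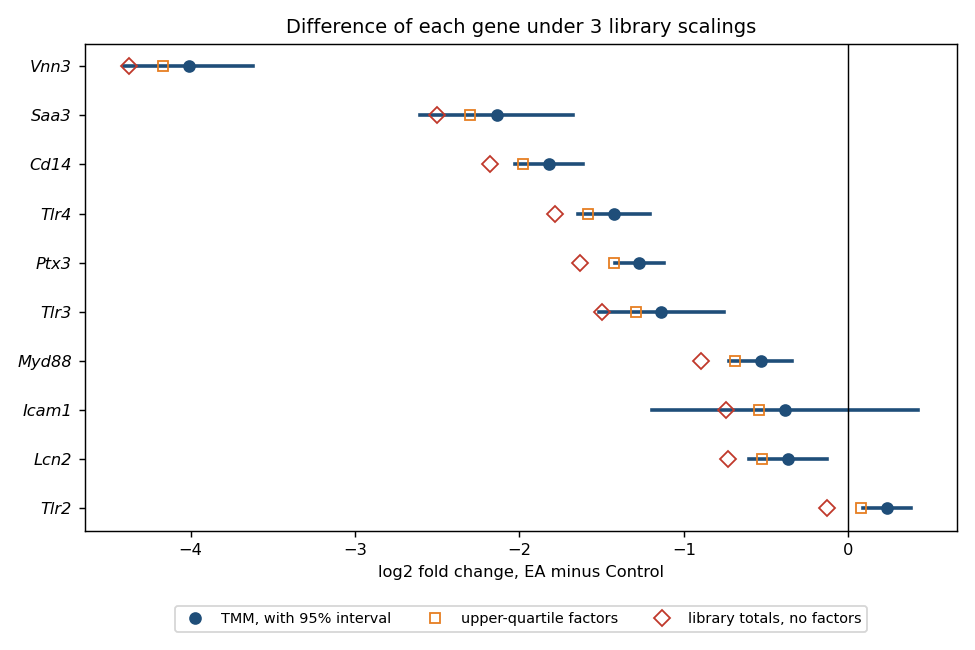
Log2 fold change (EA minus Control, horizontal axis) of each of the 10 genes, with TMM scaling and its 95% interval (circles and bars), upper-quartile factors (squares) and library totals (diamonds). Vnn3 lies farthest to the left at −4.01, and Tlr2 is the gene whose points fall on both sides of 0.

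The 250 bases before the annotated start site were searched for letters that resemble binding motifs of the transcription factors named above. Whether these factors took part in the changes was not tested. RefSeq promoter entries (build GRCm38.p6) matched 8 of the 10 genes. Both strands were searched for the degenerate NF-kB consensus and a stricter form included in it (GGGA and TTCC with any 2 bases between). They were also searched for the letters TTGCNNNAA and the interferon-response core (GAAA and GAAA with any 2 bases between). TTGCNNNAA resembles C/EBP sites but is not the usual C/EBP consensus, so such sites can lie unmarked here. Of 32851 promoter windows of this length, 7.25% hold the NF-kB consensus and 1.21% its stricter form. The letters TTGCNNNAA are in 8.29% and the interferon-response core in 2.98%. The windows shown were chosen after the values were seen. They are those of Tlr2 and Tlr3, receptor genes with an NF-kB match, and of Saa3 and Vnn3, the genes with the largest falls. Each is written 5′ to 3′ on the strand of the gene, with motif matches in capitals. The window of Tlr2 is chr3:83841609-83841858, minus strand, that of Tlr3 chr8:45410381-45410630, minus strand, that of Saa3 chr7:46715677-46715926, minus strand, and that of Vnn3 chr10:23851212-23851461, plus strand.
Tlr2: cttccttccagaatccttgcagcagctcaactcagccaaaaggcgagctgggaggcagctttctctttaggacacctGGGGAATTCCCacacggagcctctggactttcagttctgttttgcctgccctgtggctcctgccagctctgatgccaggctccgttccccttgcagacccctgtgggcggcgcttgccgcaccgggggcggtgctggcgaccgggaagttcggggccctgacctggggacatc
Tlr3: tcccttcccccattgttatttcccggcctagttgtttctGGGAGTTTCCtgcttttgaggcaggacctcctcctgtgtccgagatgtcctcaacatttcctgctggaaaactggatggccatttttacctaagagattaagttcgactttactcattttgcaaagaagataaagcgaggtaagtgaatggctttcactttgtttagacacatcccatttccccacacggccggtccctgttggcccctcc
Saa3: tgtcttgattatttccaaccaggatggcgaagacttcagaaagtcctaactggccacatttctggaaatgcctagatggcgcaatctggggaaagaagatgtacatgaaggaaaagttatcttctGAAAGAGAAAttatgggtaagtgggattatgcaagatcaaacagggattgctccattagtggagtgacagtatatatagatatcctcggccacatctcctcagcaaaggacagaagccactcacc
Vnn3: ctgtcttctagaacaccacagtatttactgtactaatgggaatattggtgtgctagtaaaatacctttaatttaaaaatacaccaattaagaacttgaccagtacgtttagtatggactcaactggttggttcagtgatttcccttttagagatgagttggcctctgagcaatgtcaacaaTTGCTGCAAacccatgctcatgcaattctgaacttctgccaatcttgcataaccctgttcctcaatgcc
The capitals are overlapping matches to the NF-kB consensus from 173 to 163 bases before the start in Tlr2, and a match to both NF-kB forms from 211 to 202 bases before it in Tlr3. They are an interferon-response core from 125 to 116 bases before the start in Saa3. In Vnn3 they are a TTGCNNNAA match that reads on both strands, from 69 to 61 bases before the start. Myd88 held a TTGCNNNAA match and an interferon-response core, Ptx3 held a TTGCNNNAA match, and the windows of Lcn2 and Icam1 held none of these letters. A match describes the letters of the window, not a bound site.

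The genes of both CD14 and TLR4, which recognise lipopolysaccharide, were lower with EA. Cd14 (chromosome 18, 36858120 to 36859851, build GRCm39 as in the deposited table) encodes the surface protein that hands lipopolysaccharide to the receptor complex of TLR4 and MD-2. It was at 36.3, 36.4, 33.9 and 29.5 CPM in Control libraries 1 to 4 and at 10.6, 9.79, 9.30 and 8.90 CPM in EA libraries 1 to 4. The groups lay far apart, with the highest EA library below every Control library. The log2 fold change was −1.82 ± 0.10 (SE; edgeR adjusted p = 1.66e-12), a 3.53-fold fall.

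Tlr4 (chromosome 4, 66745821 to 66848521), the signalling receptor for lipopolysaccharide, was at 24.6, 27.7, 27.6 and 28.4 CPM in Control and at 9.81, 10.0, 11.9 and 8.54 CPM in EA. It fell 2.68-fold, with no overlap between groups (log2 fold change −1.42 ± 0.11, edgeR adjusted p = 2.15e-10). Other genes of lipopolysaccharide recognition gave different results. Ly96, which encodes the MD-2 subunit, was low at 2.11 ± 0.249 CPM (SD, n = 4) in Control and at 1.58 ± 0.264 CPM in EA, and its difference did not pass the test (log2 fold change −0.42, edgeR adjusted p = 0.14), although with library totals it was called lower (edgeR adjusted p = 0.00717). Lbp, the soluble protein that loads lipopolysaccharide onto CD14, rose 1.68-fold, from 22.6 ± 3.98 to 37.8 ± 6.53 CPM (edgeR adjusted p = 1.16e-04), and was also higher with library totals (log2 fold change 0.38, edgeR adjusted p = 0.0132).

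Tlr2 (chromosome 3, 83743579 to 83749074), the receptor for bacterial lipoproteins, was the most abundant Toll-like receptor transcript per length, at 37.9 ± 3.71 FPKM in Control and 34.6 ± 1.97 in EA. Its CPM were 101, 104, 110 and 87.5 in Control and 124, 113, 124 and 113 in EA. Every EA library thus lay above every Control library, which held for 29.9% of tested genes, and the log2 fold change was 0.24 ± 0.07 (edgeR adjusted p = 0.00505). This direction rests on the scaling: with library totals the sign turned (log2 fold change −0.13, edgeR adjusted p = 0.101), and with upper-quartile factors the gene was not called either (edgeR adjusted p = 0.343).

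Tlr3 (chromosome 8, 45848702 to 45864117), the endosomal receptor for double-stranded RNA, was at 6.88, 7.76, 8.02 and 10.0 CPM in Control and at 3.46, 5.15, 3.64 and 2.63 CPM in EA. All EA values were below all Control values, and the gene fell 2.20-fold (log2 fold change −1.14 ± 0.18, edgeR adjusted p = 1.54e-05). Its counts were small, at 579 reads over the 4 Control libraries and 206 over the 4 EA libraries.

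Enough reads to be tested were found for 5 of the 12 Toll-like receptor genes. Of these 3 were lower and 2 higher, beside 34.2% and 33.1% of all tested genes. With library totals 3 were lower and 1 higher, beside 61.1% and 16.5% of all tested genes. Besides those above, Tlr1, a partner of TLR2, fell 2.61-fold from only 1.46 ± 0.412 CPM (edgeR adjusted p = 0.00201). Tlr5, the flagellin receptor, rose 2.10-fold from 5.24 ± 0.705 to 11.03 ± 0.759 CPM (edgeR adjusted p = 5.98e-07), and it was also higher with library totals (log2 fold change 0.71). The remaining receptors were at or near 0. Tlr6, the other partner of TLR2, had 20 reads in Control and 32 in EA over 4 libraries each, and Tlr7, Tlr8, Tlr9, Tlr11, Tlr12 and Tlr13 had at most 5 in either group.

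Of 11 co-receptor and trafficking genes 7 were tested. Cd14 was the member called lower while 4 were higher, beside 34.2% and 33.1% of all tested genes. With library totals 4 were lower and 3 higher, beside 61.1% and 16.5% of all tested genes. Besides Lbp, the genes higher under TMM scaling were Cd36, a scavenger receptor that assists TLR2, at 1.67-fold and the damage signal gene Hmgb1 at 1.76-fold. Hsp90b1, the chaperone that folds Toll-like receptors, was also higher, at 1.147-fold, but turned to lower with library totals (log2 fold change −0.16). Cnpy3, a co-factor of that chaperone, did not pass the test (log2 fold change 0.05, edgeR adjusted p = 0.506) and turned to −0.31 with library totals. Unc93b1, which carries TLR3 and other receptors to endosomes, had 25 reads in Control and 20 in EA, Cd180 had 2 and 9, Tril had 2 and 0, and Ly86 had 0 in both.

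**Figure D2:**
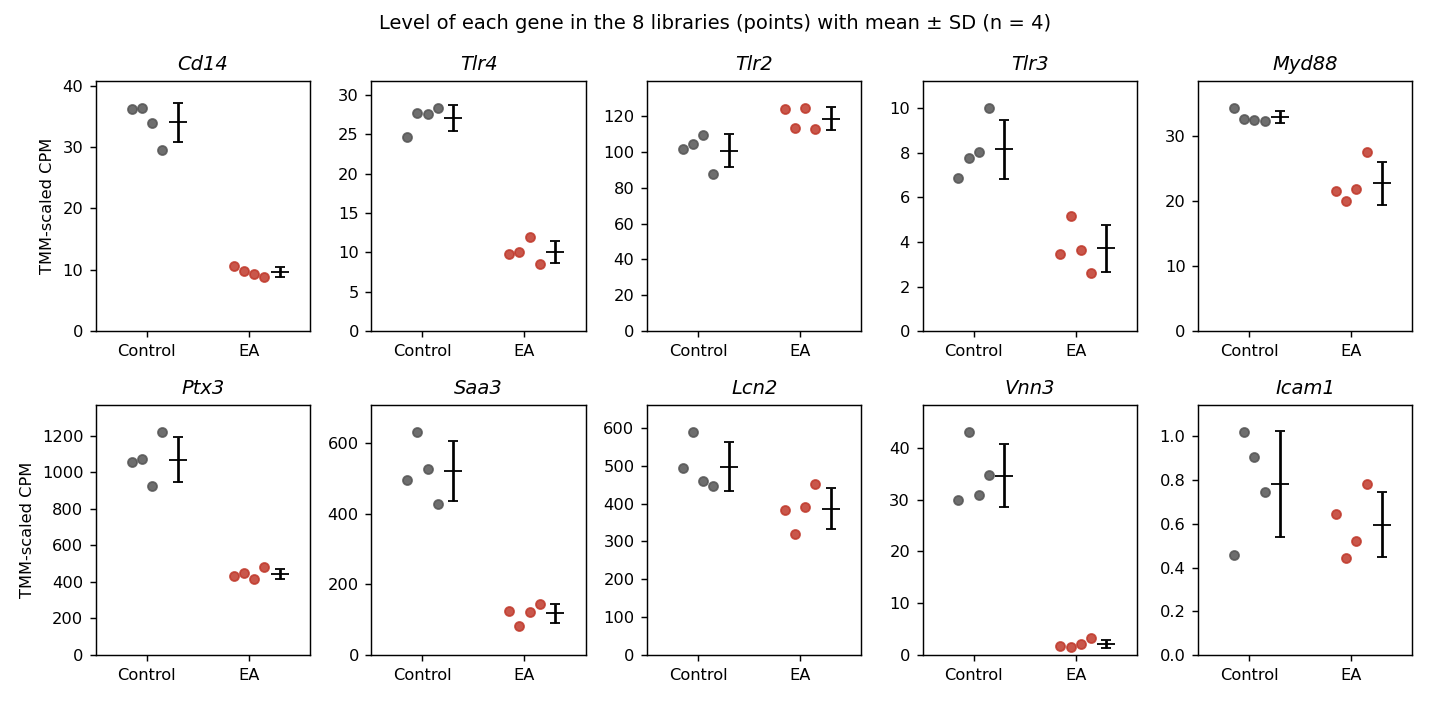
TMM-scaled CPM (vertical axis, from 0) of each gene in the 4 Control and 4 EA libraries (points), with the mean ± SD beside them. Vnn3 drops from 34.7 to 2.13 CPM on average, Tlr2 sits slightly higher in EA under this scaling, and the groups of Lcn2 and Icam1 overlap.

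Myd88 (chromosome 9, 119165000 to 119170477), the adaptor shared by most Toll-like receptors and by interleukin-1 receptors, had a smaller fold change than the receptor genes Tlr4 and Tlr3. It was at 34.3, 32.5, 32.4 and 32.3 CPM in Control and at 21.5, 20.02, 21.9 and 27.5 CPM in EA. The groups did not overlap, and the log2 fold change was −0.53 ± 0.09 (edgeR adjusted p = 3.53e-05), a 1.45-fold fall. Acaa1a overlaps Myd88 on the opposite strand and had 5430 reads in Control and 4260 in EA. Whether the counting used strand is not given in the sources used here, so reads in the overlap cannot be assigned with certainty.

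The signalling genes downstream of the receptors were called at shares near those of all tested genes. Of 23 tested adaptors, kinases and ubiquitin ligases 10 (43.5%) were lower and 7 (30.4%) higher, beside 34.2% and 33.1% of all tested genes, with a median log2 fold change of −0.13. With library totals 15 were lower and 2 higher, beside 61.1% and 16.5% of all tested genes. Tab2, which links ubiquitin chains to the kinase TAK1, fell 1.57-fold from 341 ± 12.3 to 217 ± 6.30 CPM (edgeR adjusted p = 8.02e-10). Ripk1, a kinase of the TLR3 and TNF receptor branches, fell 1.47-fold (edgeR adjusted p = 3.85e-06). Map3k7, which encodes TAK1 itself, rose 1.41-fold from 102 ± 1.84 to 144 ± 5.10 CPM (edgeR adjusted p = 9.76e-08). Irak2, a kinase recruited by MyD88, rose 1.65-fold (edgeR adjusted p = 1.55e-06).

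Most sensors of the cytosol were lower. Of 14 tested cytosolic sensors and adaptors 11 were lower and 1 higher, beside 34.2% and 33.1% of all tested genes, and the median log2 fold change was −0.76. With library totals 12 were lower and 1 higher, beside 61.1% and 16.5% of all tested genes. Zbp1, a sensor of Z-form nucleic acid, fell 5.48-fold from 9.02 ± 0.908 to 1.63 ± 0.416 CPM (edgeR adjusted p = 2.66e-10). Ripk2, the kinase that carries the signal of NOD1 and NOD2, fell 2.46-fold from 66.1 ± 3.25 to 26.9 ± 2.18 CPM (edgeR adjusted p = 3.14e-12). The higher gene was Nod1, a receptor for bacterial peptidoglycan, at 16.5 ± 2.23 CPM in Control and 33.8 ± 1.84 in EA (edgeR adjusted p = 9.01e-09). Its relative Nod2 fell 2.09-fold (edgeR adjusted p = 2.28e-08) and is named because of its value.

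**Figure D3:**
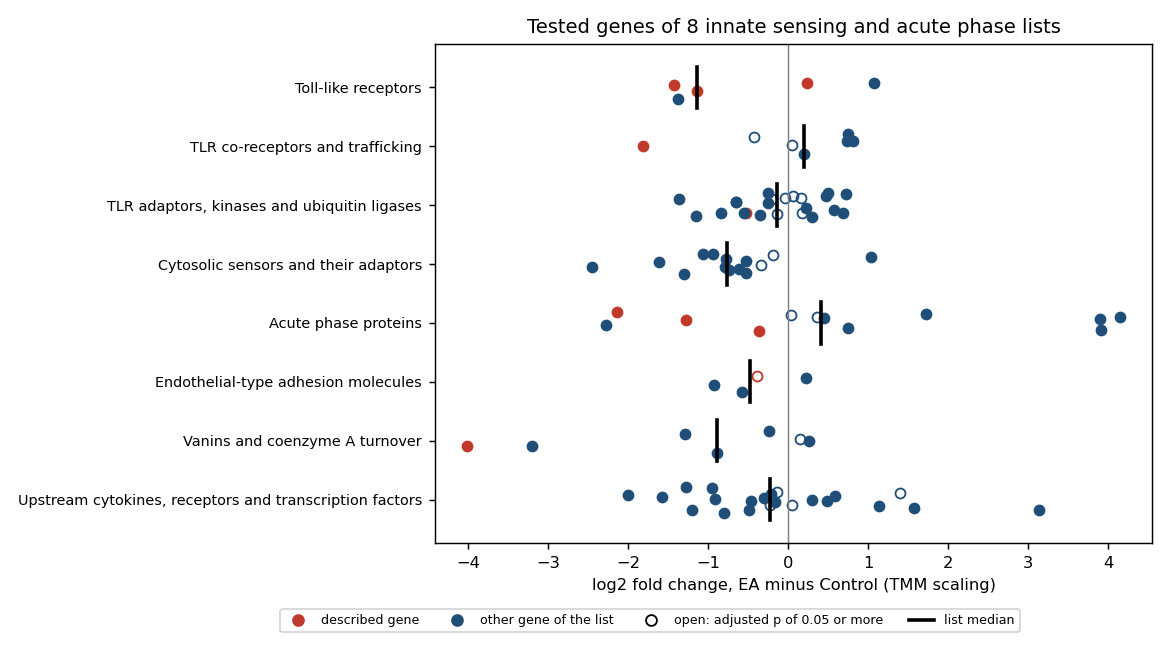
Log2 fold change (EA minus Control, TMM scaling, horizontal axis) of each tested gene in 8 lists, with the 10 described genes in red, other genes in blue, open circles for genes not past the threshold and a black bar at each list median. The cytosolic sensors lie mostly to the left with a median of −0.76, and the acute phase genes spread to both sides.

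The 3 most abundant of the 10 genes encode secreted acute phase proteins, and all were lower with EA. Ptx3 (chromosome 3, 66127331 to 66133226) encodes the long pentraxin made locally by stromal and myeloid cells, which opsonises microbes and stabilises hyaluronan matrix. It was at 1057, 1075, 923 and 1223 CPM in Control and at 429, 447, 417 and 479 CPM in EA. Each EA library was far below each Control library, and the gene fell 2.41-fold (log2 fold change −1.27 ± 0.07, edgeR adjusted p = 1.39e-11). By mean FPKM it ranked 52 of all genes in Control and 232 in EA. Veph1 overlaps Ptx3 on the opposite strand but had only 155 reads in Control and 95 in EA, against 75552 and 24563 for Ptx3.

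Saa3 (chromosome 7, 46361422 to 46365124), the serum amyloid A gene expressed outside the liver, was at 495, 633, 527 and 428 CPM in Control and at 126, 81.7, 120 and 145 CPM in EA. The groups were separate although Saa3 varied widely among EA libraries, and it fell 4.40-fold (log2 fold change −2.14 ± 0.20, edgeR adjusted p = 3.50e-05). The paralogous genes of its cluster on chromosome 7 carried few reads, at 28 in Control and 11 in EA for Saa1, 50 and 11 for Saa2 and 26 and 10 for Saa4, against 36520 and 6565 for Saa3.

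Lcn2 (chromosome 2, 32274645 to 32278264) encodes lipocalin 2, which withholds iron from bacteria by binding their siderophores. It was at 495, 591, 460 and 447 CPM in Control and at 382, 320, 391 and 452 CPM in EA. EA library 4 lay above Control library 4, so the groups overlapped under TMM scaling, whereas with library totals every EA library was below every Control library. The fall was 1.29-fold (log2 fold change −0.37 ± 0.11, edgeR adjusted p = 0.00992). Without the low-count filter it was not past the threshold (edgeR adjusted p = 0.0559).

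Of the other acute phase genes more were higher than lower under TMM scaling. Of the 9 tested besides Ptx3, Saa3 and Lcn2, 1 was lower and 6 were higher, with a median log2 fold change of 0.74. Among all tested genes 34.2% were lower and 33.1% higher. The whole list has 28 genes, of which 12 were tested, with 4 lower and 6 higher under TMM scaling. With library totals 5 were lower and 5 higher, beside 61.1% and 16.5% of all tested genes. The lower gene besides Ptx3, Saa3 and Lcn2 was Steap4, a metalloreductase induced by inflammation, which fell 4.85-fold from 37.4 ± 7.26 to 7.67 ± 1.07 CPM (edgeR adjusted p = 3.54e-10). Among the higher genes were Orm1 and Orm2, which encode the serum glycoprotein orosomucoid. Orm1 rose from 0.483 ± 0.0592 to 8.68 ± 0.488 CPM (edgeR adjusted p = 3.77e-13) and Orm2 from 0.434 ± 0.164 to 6.71 ± 1.03 CPM (edgeR adjusted p = 3.60e-11). Their paralog Orm3 was also called higher (edgeR adjusted p = 4.26e-04). The Orm genes are closely related copies, so how their reads divide between them is uncertain and their calls may not be independent. This was not tested. Chosen after their values were seen, the protease inhibitor gene Serpina3n rose 14.9-fold to 19.0 ± 5.33 CPM (edgeR adjusted p = 6.40e-11) and haptoglobin (Hp) 1.67-fold (edgeR adjusted p = 5.83e-05). Also chosen after its value was seen, complement C3, the most abundant of these genes per length at 793 FPKM in Control, was not called under TMM scaling (log2 fold change 0.03, edgeR adjusted p = 0.705) and was lower with library totals (log2 fold change −0.33).

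**Figure D4:**
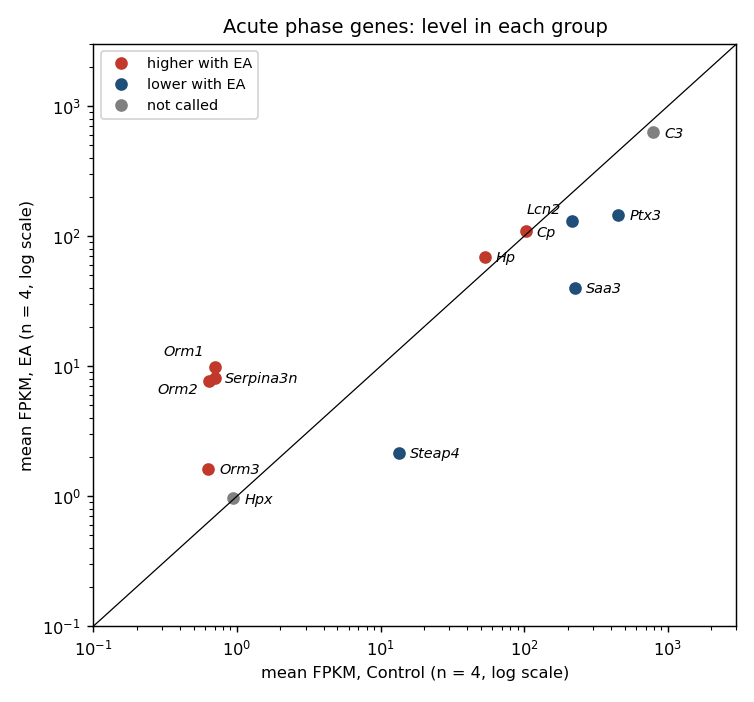
Mean FPKM in EA against mean FPKM in Control (log axes, n = 4 each) of the 12 tested acute phase genes, with red for genes called higher, blue for lower and grey for neither under TMM scaling, and the line of equal level. Ptx3, Saa3, Lcn2, Steap4 and C3 lie below the line, and Orm1, Orm2 and Serpina3n rise from under 1 FPKM. FPKM use no TMM factor, so the line does not mark an unchanged level under TMM scaling.

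Vnn3 had the largest fall of the 10 genes. Vnn3 (chromosome 10, 23727360 to 23745741) encodes a vanin, a family of pantetheinases that break pantetheine into vitamin B5 and cysteamine. It was at 30.0, 43.2, 30.9 and 34.7 CPM in Control and at 1.69, 1.47, 2.08 and 3.27 CPM in EA. EA libraries kept 6.14% of the mean Control level, with no overlap (log2 fold change −4.01 ± 0.18, edgeR adjusted p = 4.60e-12). Its neighbour on the same chromosome Vnn1 (23770586 to 23781241), chosen after its value was seen, fell 9.23-fold from 148 ± 30.5 to 15.9 ± 3.81 CPM (edgeR adjusted p = 8.06e-07). Of 7 vanin and coenzyme A genes 5 were lower and 1 higher, with a median log2 fold change of −0.89. Without Vnn3, 4 of 6 were lower and 1 higher, with a median of −0.56. Among all tested genes 34.2% were lower and 33.1% higher. With library totals 6 of the 7 were lower and 0 higher, beside 61.1% and 16.5% of all tested genes. Coasy, the enzyme of the last steps of coenzyme A synthesis, fell 1.85-fold (edgeR adjusted p = 4.11e-08), and the pantothenate kinase gene Pank3 was 1.20-fold higher but turned to lower with library totals (log2 fold change −0.10).

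Icam1 (chromosome 9, 20927281 to 20940113), the adhesion receptor for leukocyte integrins and a standard NF-kB target, was nearly silent in both groups. It had 8, 17, 16 and 14 reads in Control libraries and 8, 6, 8 and 11 in EA libraries. The groups overlapped, and the difference did not pass the test (log2 fold change −0.39, with a 95% interval of −1.20 to 0.42, edgeR adjusted p = 0.389). The interval is wide at this depth, and it includes 0 as well as a fall as large as that of Tlr3. Of 4 tested adhesion genes 2 were lower and 1 higher, beside 34.2% and 33.1% of all tested genes. With library totals 2 were lower and 0 higher, beside 61.1% and 16.5% of all tested genes. Vcam1, a ligand for lymphocyte and progenitor integrins, fell 1.49-fold from 308 ± 39.8 to 207 ± 13.6 CPM (edgeR adjusted p = 5.02e-06) and Icam5 fell 1.91-fold (edgeR adjusted p = 0.00116). Alcam was 1.16-fold higher, and its sign turned with library totals (log2 fold change −0.14).

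Compared per length, the order of the 10 genes changed. In Control the mean FPKM was 452 ± 49.6 for Ptx3, 227 ± 37.8 for Saa3, 215 ± 28.2 for Lcn2, 37.9 ± 3.71 for Tlr2, 22.3 ± 2.13 for Cd14, 21.7 ± 3.77 for Vnn3 and 14.5 ± 0.391 for Myd88 (SD, n = 4). Tlr4 followed at 5.52 ± 0.351, Tlr3 at 1.78 ± 0.285 and Icam1 at 0.204 ± 0.0640 FPKM. Only the ranges of Saa3 with Lcn2 and of Cd14 with Vnn3 overlapped among neighbours in this order. In EA the order was Ptx3 at 146 ± 8.39, Lcn2 at 130 ± 17.9, Saa3 at 40.0 ± 8.90, Tlr2 at 34.6 ± 1.97, Myd88 at 7.77 ± 1.09 and Cd14 at 4.91 ± 0.381 FPKM. Tlr4 followed at 1.597 ± 0.225, Vnn3 at 1.04 ± 0.388, Tlr3 at 0.630 ± 0.179 and Icam1 at 0.121 ± 0.0298 FPKM. Here the ranges of Ptx3 with Lcn2, of Saa3 with Tlr2, of Tlr4 with Vnn3 and of Vnn3 with Tlr3 overlapped. Saa3 thus went from a level like that of Lcn2 to one like that of Tlr2.

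Ratios between genes of the same library do not depend on how libraries are scaled. Against Tlr2, a reference chosen after the values were seen, the FPKM ratio of Tlr4 was 0.132 to 0.176 in Control and 0.0411 to 0.0519 in EA. That of Cd14 was 0.539 to 0.622 in Control and 0.130 to 0.150 in EA, and that of Saa3 was 5.57 to 7.03 in Control and 0.835 to 1.49 in EA. Tlr2 lay at percentile 67.7 of the log2 fold changes of all tested genes, so most genes were lower relative to it. These ratios show unequal change, not that Tlr2 itself stayed the same. Together the 10 genes took 0.264 ± 0.0185% of all reads in Control and 0.0983 ± 0.00814% in EA, as mean ± SD of 4 libraries, and Ptx3, Lcn2 and Saa3 held 89.7% and 84.9% of that share. Unlike the ratios, this share depends on the scaling. It is a share of library totals, with which 61.1% of all tested genes were lower. Within the EA group, library 4 had the highest level of 6 of the 10 genes, among them Saa3, Lcn2, Ptx3, Myd88 and Vnn3, and within Control library 2 had the highest level of 5.

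Of 22 tested genes that act upstream of the acute phase genes 12 (54.5%) were lower and 6 (27.3%) higher, beside 34.2% and 33.1% of all tested genes, with a median log2 fold change of −0.22. With library totals 15 were lower and 4 higher, beside 61.1% and 16.5% of all tested genes. Irf9, a subunit of the interferon-activated complex ISGF3, fell 2.42-fold from 39.5 ± 2.38 to 16.3 ± 0.812 CPM (edgeR adjusted p = 2.22e-11), and the NF-kB subunit gene Relb fell 1.89-fold (edgeR adjusted p = 1.38e-10). Il6ra, the interleukin-6 receptor gene, rose 8.77-fold from 10.4 ± 0.386 to 91.5 ± 5.31 CPM (edgeR adjusted p = 3.33e-18), and the TNF receptor gene Tnfrsf1b rose 2.97-fold (edgeR adjusted p = 1.52e-15). Chosen after their values were seen, Nfkbiz, a nuclear co-activator needed for a set of inflammatory genes, fell 2.98-fold from 167 ± 4.98 to 56.2 ± 15.3 CPM (edgeR adjusted p = 2.64e-05), and Il6 fell 2.30-fold (edgeR adjusted p = 1.59e-08). The NF-kB inhibitor genes Nfkbia and Tnfaip3, chosen in the same way, were higher under TMM scaling. Nfkbia rose 1.40-fold (edgeR adjusted p = 8.68e-06) and Tnfaip3, of the adaptor list, 1.48-fold (edgeR adjusted p = 0.0016). Neither was called with library totals (edgeR adjusted p = 0.143 and 0.167). The cytokine genes Tnf and Il1b, likewise chosen, were at or near 0, with 0 and 1 reads for Tnf and 3 and 0 for Il1b in Control and EA. Of the 84 tested genes in all 8 lists that are not among the 10, 40 were lower and 27 higher. The shares of all tested genes were 34.2% and 33.1%. With library totals the 94 tested genes of the lists, the 10 included, divided into 62 lower and 16 higher, against 48 and 28. Among all tested genes 61.1% were lower and 16.5% higher with library totals.

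Cd14, Tlr2 and Tlr4 are also abundant in macrophages, which marrow cultures can hold. In bulk RNA, fewer cells of a type and less RNA per cell cannot be told apart. Of 15 macrophage markers 1 was at 0 in all libraries, and the summed level of the list was 38.8 to 53.0 CPM in Control and 99.3 to 107.9 in EA (library totals). Most of it came from Lyz2, at 2411 reads in Control and 2830 in EA, and Mertk, at 151 and 3453. Cd163 had fewer reads in EA, at 253 in Control and 160 in EA, as did Cd68, at 97 and 58. The other markers of the list were near 0 over 4 libraries each, with at most 23 reads in Control and 22 in EA (Csf1r). Among them Ptprc (CD45) had 16 and 17 reads, Adgre1 (F4/80) 5 and 2 and Itgam 1 and 0. Lcn2 is also a granule protein of neutrophils, whose markers summed to 1.61 to 2.34 CPM in Control and 0.844 to 2.42 in EA. The 15 stromal markers summed to 17576 to 19937 CPM in Control and 19245 to 20049 in EA. Most of this sum came from Col1a1, at 394937 reads in Control and 412433 in EA, and Col1a2, at 554422 and 587438. Of the 14 tested stromal markers 3 were lower and 8 higher under TMM scaling, beside 34.2% and 33.1% of all tested genes. Single markers moved in both directions beneath this sum, Pdgfra from 9665 to 34986 reads and Prrx1 from 36039 to 18762. Thy1, with 12 and 7 reads, and Lepr, with 58 and 69, were close to absent in both groups. The part of these shifts in the results was not tested.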

How the data were processed

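RNA sequencing counts of 4 Control and 4 EA libraries of mouse bone marrow mesenchymal stem cells were analysed. The deposited read counts are the authors' own, made with cutadapt 1.15, HISAT2 2.0.5 and mouse build GRCm39 per the submitters' processing notes. The sources used here do not name the read counter, its strand setting or the annotation release. The deposited FPKM values are the authors' own and equal count per gene length and column total, with a largest relative deviation of 3.55e-14.

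Counts were tested in R 4.3.3 with edgeR 4.0.16 (TMM factors, default filter by group, robust quasi-likelihood F test, no covariates). The biological coefficient of variation was 7.78%. The SE is the log2 fold change divided by the square root of F. CPM of summed markers use library totals. Total counts of 14112519 to 17390200 reads limit precision for genes of few reads. Libraries of a group differed by more than sampling noise, so none was merged. Same-numbered libraries are not stated to be paired. The steps were tested on simulated data in which few genes changed, in random directions. That test does not cover the choice of library scaling. Alternatives used RLE, upper-quartile or no factors, other filters, DESeq2 1.42.0, limma 3.58.1 on voom or log2 FPKM values, a stricter threshold, a replicate block and leaving out each library.

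The 10 genes and 8 gene lists were chosen with earlier results of these data known. Named were all 10 genes, all Toll-like receptors and co-receptors, and up to 2 rising and 2 falling called genes by p-value of each other list. Overlapping genes, paralogs and cell type markers are named for that relation, and other genes outside this rule are marked. Figures were drawn with matplotlib 3.10.9.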

Additional observations from a re-analysis of the deposited data

Results flagged for a closer look

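Of 20 groups of 4 values (10 genes in Control and in EA), 1 held a library that stood apart by Dixon's ratio. Myd88 was at 34.3 CPM in Control library 1 and at 32.3 to 32.5 CPM in the other Control libraries. This gap is small beside the distance to the EA libraries, at 20.02 to 27.5 CPM. Chance flags about 1 in 20 such groups.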

How the results depend on the processing

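Over 19 alternatives, 184 of 189 log2 fold changes of the 10 genes kept their direction and their side of the threshold, and 8 of the 10 genes were called lower in each alternative except without the low-count filter, where 7 were. Leaving out each library in turn gave 8 lower and 1 higher every time. Of all tested genes, 11864 to 11949 in these fits, 3794 to 3957 were lower and 3721 to 4012 higher. The gene called higher, Tlr2, was lost with upper-quartile factors, library totals, log2(FPKM + 1) and log2(FPKM + 0.1), which each gave 0 higher. With upper-quartile factors 5338 of 11777 tested genes were lower and 2830 higher. Without the low-count filter 4200 of 17368 tested genes were lower and 3969 higher. With library totals, log2(FPKM + 1) and log2(FPKM + 0.1) in turn, all tested genes divided into 7196, 7170 and 7179 lower and 1940, 1924 and 1922 higher, and the genes of all lists called higher were 16 in each, against 28. In the same order Tlr2 turned to −0.13, −0.12 and −0.12 on the log2 scale, Alcam to −0.14, −0.12 and −0.14, Pank3 to −0.10, −0.094 and −0.099, Hsp90b1 to −0.16 in each, and Cnpy3 to −0.31, −0.30 and −0.31 (and −0.11 with upper-quartile factors). Library totals and both FPKM settings use no composition factor. With the replicate block 8 of the 10 genes were lower and 1 higher, beside 3960 lower and 3834 higher of 11777 tested genes. Deviations of same-numbered libraries correlated at −0.02 to 0.03, so the numbers give no sign of pairing. Low depth limits Icam1, which was not tested at a CPM above 1 in all libraries.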

Other observations

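Cebpb, which encodes a C/EBP factor of acute phase genes, varied widely within both groups. It was at 65.3, 42.3, 25.3 and 16.8 CPM in Control libraries 1 to 4 and at 49.9, 84.9, 105 and 152 CPM in EA libraries 1 to 4. The groups overlapped, and the difference was not past the threshold (log2 fold change 1.40 ± 0.52, edgeR adjusted p = 0.0516). Its relative Cebpd was lower with EA, from 69.4 ± 5.33 to 35.7 ± 2.86 CPM (SD, n = 4 each; edgeR adjusted p = 5.89e-10). Stat3, the factor through which interleukin-6 acts on acute phase genes, rose 1.496-fold from 266 ± 21.9 to 398 ± 8.30 CPM (edgeR adjusted p = 3.04e-08) and was also higher with library totals (log2 fold change 0.22). Il6st, the gene of the signalling subunit of the interleukin-6 receptor, went the other way. It fell 1.38-fold (edgeR adjusted p = 7.32e-08) and was also lower with library totals (log2 fold change −0.83). The interleukin-1 receptor gene Il1r1 rose 2.19-fold (edgeR adjusted p = 3.96e-11), and Irf1, an interferon-induced transcription factor, fell 3.999-fold from 43.1 ± 4.40 to 10.8 ± 2.77 CPM (edgeR adjusted p = 1.47e-09). These genes were chosen after their values were seen.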
